A study of Mus musculus with 12 samples.

Results

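Mammary tumors of WAP-SVT/t mice were compared with lactating glands of WAP-SVT/t mice, so that both sides of the comparison carried the same transgene. The groups were taken from the sample titles and held 3 tumors (tumors 1 to 3) and 3 glands (glands 1 to 3), which are 6 of the 12 samples of the series. In these female NMRI mice the promoter of Wap, a milk protein gene, makes the epithelium of the gland express SV40 T and t antigens. The glands were tissue segments from the first day of lactation. The labels give no age for either group, and no lactation state for the animals with tumors. The difference between tumor and gland and a difference in lactation state therefore cannot be told apart. Day-matched glands of NMRI mice that lack the transgene (3 samples) entered the fit for its estimate of spread. Cultured cells have 1 array each and are given only as values beside a few genes: the line ME-A, its revertant ME-B, and ME-B-T/t, which was transformed again. RNA was measured on single-color arrays of 22690 probe sets, which stood for 12393 genes. Of these, 7899 were bright enough to test. RNA of the transgene itself was not analysed here.

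In lactation, luminal alveolar cells make caseins and whey proteins under prolactin and STAT5 and release milk fat in droplets wrapped in membrane, while contractile basal cells squeeze the milk into the ducts. Fat cells fill the space between the alveoli and shrink as lactation sets in. Large T antigen binds the p53 and RB proteins and so takes away brakes on cell division. In a Wap-driven model the promoter that makes the oncogene is itself a promoter of the lactating cell.

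Each value below is a probe set's signal in intensity units, with all arrays scaled to a common mean. Signals below 57.4 were raised to that floor before log2 values were taken, so a log2 difference (tumors minus glands, ± standard error, n = 3 arrays per group) is smaller than the true one where a group reaches the floor. A gene rose or fell where its adjusted p in limma was under 0.05. The labels give sample numbers for the glands, and a number and an identifier for each tumor, but do not state separate animals. Thus p measures the spread between samples within the 3 fitted groups, NMRI glands included, which may in part be technical. In whole tissue, fewer cells of a type and less RNA per cell cannot be told apart.

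Epithelial markers were high on all 6 arrays: Epcam, a surface protein of epithelium, had 6553, 6814 and 8001 in glands 1 to 3 and 5996, 5867 and 5953 in tumors 1 to 3. The luminal keratin gene Krt8 had 3995, 4788 and 5041 in the glands and 3575, 5317 and 4129.7 in the tumors. Some arrays stood apart. The Gapdh control signal near the 3-prime end divided by that near the 5-prime end, a sign of RNA breakdown when high, was 10.7, 2.49 and 22.5 in the glands and 5.63, 0.982 and 0.969 in the tumors. Skeletal muscle markers (26 genes, mean log2 signal) stood at 6.42, 6.53 and 9.11 in the glands and at 8.78, 6.11 and 6.02 in the tumors, so gland 3 and tumor 1 stood above the other 4 arrays. For both features a part in the results below was not tested beyond the values with the Gapdh covariate or without those arrays. Secretory genes of the salivary gland (18 genes, a list made after their values were seen) had a mean log2 signal of 10.54 in tumor 2, against 6.53 and 6.85 in tumors 1 and 3 and 6.62 to 6.79 in the glands.

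In all, 98 genes were higher (1.24% of those tested) and 135 lower (1.71%) in tumors than in transgenic glands, and 96 and 132 of them differed by 2-fold or more. The shares of 1.24% and 1.71% are the background for every count of called list members below. A further test of single probe sets called 128 higher (1.01%) and 170 lower (1.34%) of 12673. In each of the 233 called genes (2.95%) the tumors and the glands did not overlap, which was so for 19.6% of all tested genes. The falls were larger than the rises: 24 genes fell and 6 rose by 8-fold or more. The median log2 difference over all tested genes was -0.0042. A gene was tested where at least 3 of the 9 tissue arrays were above the pooled median, and 36 of the 98 genes that rose were among 437 that met this only with the tumor arrays. With any 1 tumor left out, 77 of the 98 could still be tested, Col11a1 and Prom1 among them, but not Tesc, Hey1 or Cdkn2a, and all 135 lower genes could be. Of the lower genes, 9 were among 355 that met the rule only with the transgenic gland arrays. With any 1 transgenic gland left out, 132 of the 135 could be tested. The counts depended on which arrays were used: without tumor 2 they were 28 higher and 41 lower, without gland 1 they were 48 and 63, and without gland 3 they were 62 and 63. Without tumor 1, 65 were higher and 163 lower, and without tumor 3, 98 and 85. With the Gapdh ratio as a covariate 52 rose and 49 fell, fitted on the 6 arrays alone 65 and 59, and with no filter on dim genes 40 and 31. Among the 88 called genes that the rule for naming genes picked, every one kept its direction under all 24 alternatives where it could be tested, and 21 also stayed past the threshold in each of those. Those 21 were Glycam1, Wap, Btn1a1, Sncg, Myh11, Krt5, Ltf, Cyp4b1 and Plin2, which fell, and Tesc, Col11a1, Hey1, Aqp5, Prom1, Igfbp3, Plod2, Cdkn2a, Etv5, Col9a2, Car12 and Rad51c, which rose. Of these rises, all but Aqp5 and Plod2 were bright enough to test only with the tumor arrays. Tesc, Hey1, Igfbp3, Cdkn2a, Etv5, Col9a2 and Rad51c could be tested in only 17 to 20 of the 24 alternatives.

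**Figure D1:**
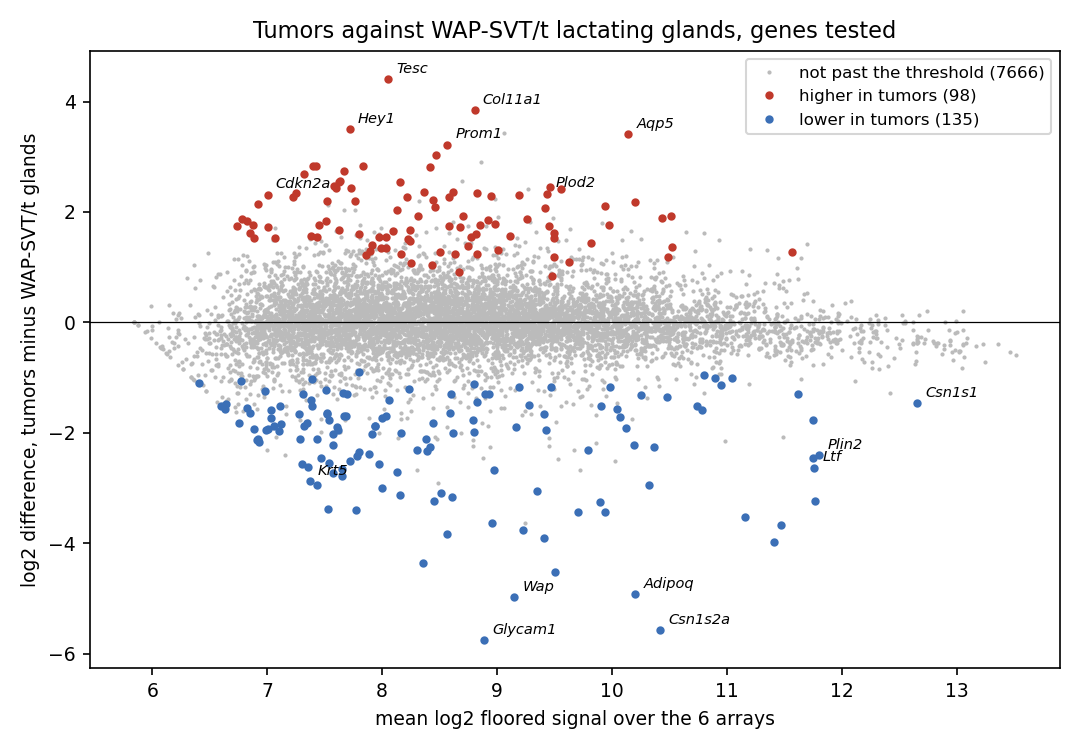
Log2 difference (tumors minus WAP-SVT/t glands) against the mean log2 floored signal of the 6 arrays, one point per tested gene, with the 98 genes called higher in red, the 135 called lower in blue and the rest in gray. The lower calls reach -5.75 (Glycam1) and the higher calls 4.41 (Tesc).

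The milk proteins were the deepest loss. Of 8 casein and whey protein genes, all tested, 6 fell and 0 rose, with a median log2 difference of -3.71. All 8 had every tumor below every gland, against 10.9% of all genes. The depth of the loss was unequal. Glycam1, which encodes a mucin-like milk protein, had 4635, 2414 and 3749 in the glands and 14.1, 81.8 and 3.41 in the tumors, and Wap, whose promoter drives the transgene, had 6362, 3140.3 and 1603 in the glands and 96.2, 119 and 90.3 in the tumors. The tumors were thus all at or close to the floor for both genes, with log2 differences of -5.75 ± 0.28 (adjusted p = 2.68e-06) and -4.97 ± 0.40 (adjusted p = 0.000118). Lalba, or alpha-lactalbumin, the regulatory subunit of lactose synthase, went from 4428, 1909 and 1279 to 215, 252 and 79.8 and fell by 13.6-fold. 

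The caseins separated from one another. Csn1s2a, a calcium-sensitive casein, had 8928, 8569.9 and 11151 in the glands against 787, 173 and 11.6 in the tumors (-5.58 ± 0.68, adjusted p = 0.0021). Csn2, or beta-casein, had 7738, 11463 and 11651 in the glands and 2539, 1496 and 133 in the tumors (-3.67 ± 0.81, adjusted p = 0.0366). For both genes tumor 1 kept the most signal and tumor 3 the least. Csn1s1, or alpha-S1-casein, was still bright in the tumors, with 3236, 5309 and 3426 against 9559.9, 9308 and 13852 in the glands (-1.46 ± 0.22, adjusted p = 0.00544). Csn3, or kappa-casein, which caps the casein micelle, had 9129, 9193 and 5128 in the tumors against 10848, 13022 and 13769 in the glands and did not pass (-0.73 ± 0.21, adjusted p = 0.112). The groups did not overlap for Csn3 either, but the step was far smaller than that of Csn2. The last casein, Csn1s2b, named after its values were seen, did not pass (log2 difference -2.31 ± 0.58, adjusted p = 0.062). The count of 6 fallen genes was 5 or 6 when any 1 tumor or gland was left out, 6 with the Gapdh covariate and 2 with no filter on dim genes.

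**Figure D2:**
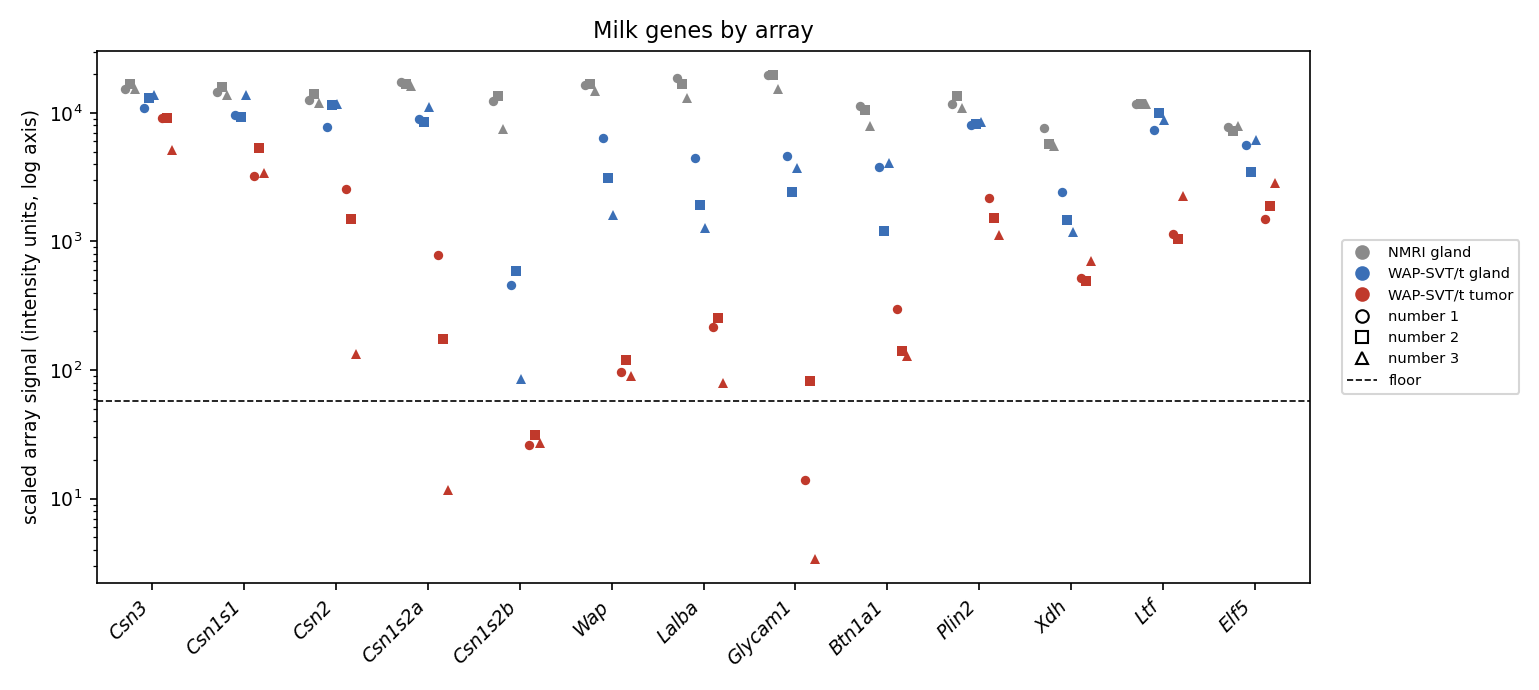
Scaled array signals (intensity units, log axis) of 13 milk genes in the 3 NMRI glands, 3 WAP-SVT/t glands and 3 WAP-SVT/t tumors, each point an array with its number as symbol and the dashed line the floor of 57.4. Csn1s1 stays at 3236 or more and Csn3 at 5128 or more in every tumor, while Wap and Glycam1 lie at or near the floor.

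The sequences just upstream of these genes are shown because the caseins share one regulator and because the Wap promoter carries the transgene. They are the 250 bases before the start site, 5′ to 3′ on the gene's strand, from RefSeq (GRCm38.p6). Capitals mark TTCNNNGAA, the spaced palindrome that STAT5 is known to bind, searched on both strands. The positions are chr5:87699426-87699675, minus strand, for Csn2, chr5:87665958-87666207, plus strand, for Csn1s1, chr15:103565082-103565331, minus strand, for Glycam1, and chr11:6638650-6638899, minus strand, for Wap.
Csn2: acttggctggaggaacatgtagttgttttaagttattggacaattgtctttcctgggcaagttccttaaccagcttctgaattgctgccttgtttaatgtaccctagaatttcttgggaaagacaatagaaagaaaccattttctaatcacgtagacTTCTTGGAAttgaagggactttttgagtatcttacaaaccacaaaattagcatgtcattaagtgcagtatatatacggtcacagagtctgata
Csn1s1: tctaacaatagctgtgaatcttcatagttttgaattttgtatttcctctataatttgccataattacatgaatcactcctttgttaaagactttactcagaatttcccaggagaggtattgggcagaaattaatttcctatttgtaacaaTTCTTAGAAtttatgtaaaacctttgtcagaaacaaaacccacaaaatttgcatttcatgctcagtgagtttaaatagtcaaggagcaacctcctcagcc
Glycam1: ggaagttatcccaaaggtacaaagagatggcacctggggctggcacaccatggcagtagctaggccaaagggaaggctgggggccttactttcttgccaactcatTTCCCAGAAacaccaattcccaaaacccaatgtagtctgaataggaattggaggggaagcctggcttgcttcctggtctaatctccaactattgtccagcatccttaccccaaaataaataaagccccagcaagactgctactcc
Wap: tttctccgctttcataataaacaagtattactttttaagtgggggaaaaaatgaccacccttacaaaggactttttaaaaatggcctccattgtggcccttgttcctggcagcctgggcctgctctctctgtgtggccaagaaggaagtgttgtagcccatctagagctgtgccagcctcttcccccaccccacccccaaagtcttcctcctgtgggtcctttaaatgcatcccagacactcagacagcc
The match began 93 bases before the start site in Csn2, 100 in Csn1s1 and 145 in Glycam1, and the letters were not in the windows of Wap, Lalba and Csn1s2a. It stood in 3 of the 6 milk protein promoters in the table, against 7.02% of all 32851 promoters of this length and 5.97% of the 134 promoters of genes that fell. Genes with the match had log2 differences from -1.46 (Csn1s1) to -5.75 (Glycam1), and Wap, with no match in this window, had -4.97.

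The machinery that coats and releases milk fat fell with the milk proteins. Of 11 milk fat globule genes, all tested, 6 fell and 0 rose (median -1.57). Btn1a1, the butyrophilin of the globule membrane, had 3787, 1201 and 4051 in the glands and 297, 140.4 and 129 in the tumors (-3.91 ± 0.46, adjusted p = 0.00179). Plin2, which coats lipid droplets, had 7998, 8266 and 8489 in the glands and 2194, 1535 and 1117 in the tumors (-2.41 ± 0.23, adjusted p = 0.000406). Neither gene showed any overlap, and Plin2 kept a signal of 1117 or more in every tumor. Xdh (chosen after its values were seen), the partner of butyrophilin at the membrane, went from 2445, 1473 and 1185 to 523, 492 and 702, and Muc15, a membrane mucin, fell by 10.9-fold. Fabp3, a fatty acid carrier of secretory cells and muscle, had 5034, 896 and 723 in the glands and 115, 37.6 and 42.9 in the tumors. The count was 5 or 6 with any 1 tumor or gland left out, 5 with the Gapdh covariate and 2 with no filter on dim genes.

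Milk defence proteins fell in part: 3 of 14 tested members fell and 0 rose (median -0.61). Ltf, or lactoferrin, the iron-binding milk protein, had 7350.5, 9964 and 8764 in the glands and 1139.7, 1054 and 2244 in the tumors (-2.63 ± 0.26, adjusted p = 0.00058). Pigr, which carries immunoglobulin A into milk, had 755, 551 and 1329.7 in the glands and 174, 333 and 239 in the tumors (-1.77 ± 0.34, adjusted p = 0.0198). Lao1, a secreted amino acid oxidase, fell from 327, 184 and 213 to 106, 47.8 and 90.7 (-1.51 ± 0.30). Lao1 was already low in these transgenic glands, since the NMRI glands had 16114, 14733 and 13076. The list's count was 1 without gland 1, 2 without tumor 2 and 1 with the Gapdh covariate or with no filter on dim genes.

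Among 21 tested nutrient and ion transporters of the secretory cell, 2 fell and 1 rose (median -0.13). Slc39a8, a zinc and manganese importer, had 548, 281 and 592 in the glands and 137, 51.6 and 57.3 in the tumors (-2.55 ± 0.38). Atp2c2, the Golgi calcium pump that loads milk with calcium, had 431, 149 and 211 in the glands and 47.3, 113 and 24.3 in the tumors (-1.73 ± 0.40, adjusted p = 0.0459) and kept its call only without gland 2 when 1 tumor or gland was left out. Slc2a1, the GLUT1 glucose carrier, rose instead and is described with glycolysis.

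Regulators upstream of the milk genes were mostly not called. Of 12 tested prolactin-STAT5 and alveolar genes, 1 fell and 0 rose (median -0.11, a sign that turned under some alternatives). The one that fell was Elf5, an alveolar transcription factor, with 5579, 3471 and 6190.5 in the glands and 1493, 1901 and 2835 in the tumors (-1.30 ± 0.27, adjusted p = 0.0291). The tumors thus kept Elf5 signals of 1493 or more, and the call was lost without tumor 1, tumor 2, gland 1 or gland 3 and with the Gapdh covariate. Stat5a had 967, 562 and 410.1 in the glands and 410.2, 447 and 377 in the tumors, with overlap, and did not pass (-0.56 ± 0.40, adjusted p = 0.527). The prolactin receptor gene was not analysed here.

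Uptake of fatty acids and their assembly into triglyceride fell in 6 of 16 tested genes, with 0 higher (median -0.86). Cd36, a fatty acid translocase, had 2275, 2775 and 6617 in the glands and 582, 52.7 and 103 in the tumors (-4.52 ± 0.70, adjusted p = 0.00647). Gpam, which starts triglyceride synthesis in mitochondria, had 1712, 1572 and 2746 in the glands and 775, 566 and 478 in the tumors (-1.71 ± 0.27), and Gpd1, which makes glycerol phosphate, fell by 4.02-fold. Fat cells use the same genes, and of the 6, Lpl and Fabp4 stand in the adipocyte list too. Cd36 and Fabp3 stand in the milk fat globule list and were counted there as well. The count was 3 without tumor 2, tumor 3, gland 1 or gland 3, 3 with the Gapdh covariate and 1 with no filter on dim genes. None of 15 de novo fatty acid synthesis genes passed (median -0.47), and none of 17 cholesterol synthesis genes did (median 0.55), although 8 of the latter had every tumor above every gland, against 8.75% of all genes.

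Adipocyte genes were lower as a group. Of 17 tested members 10 fell and 0 rose. Of the 17, 12 had every tumor below every gland, against 10.9% of all genes, and 0 had every tumor above every gland, against 8.75%. Adipoq, the fat cell hormone adiponectin, had 4564, 5953 and 10078 in the glands and 1944, 87.7 and 42.5 in the tumors (-4.92 ± 1.02, adjusted p = 0.0289). Sncg, or gamma-synuclein, was at the floor in every tumor, with 383, 727 and 761 in the glands and 46.0, 6.01 and 11.5 in the tumors, and was at least 10.4-fold lower. Plin4, a droplet coat protein, went from 973, 1914 and 2871 to 579, 78.3 and 62.4. Tumor 1 kept more of these genes than tumors 2 and 3: its Adipoq was 22.2 times that of the next tumor. Car3, the carbonic anhydrase of fat and muscle, showed the same, with 5261, 328 and 186 in tumors 1 to 3 against 8471, 9780.4 and 15280.1 in the glands (-3.98 ± 0.94, adjusted p = 0.0492). The mean log2 signal of all 21 measured markers was 9.60, 9.73 and 10.34 in the glands and 8.88, 7.34 and 7.11 in the tumors, where 5 were at the floor in all 3. The count of 10 was 1 without tumor 2, 2 without tumor 3, 4 without gland 1 or gland 2, 2 without gland 3 and 11 without tumor 1. It was 2 with the Gapdh covariate, 3 on the 6 arrays alone and 1 with no filter on dim genes.

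Basal and myoepithelial genes also fell, in 8 of 21 tested members with 0 higher (median -0.91). Krt5, the basal keratin, had 438, 458 and 446 in the glands and 69.2, 23.0 and 14.6 in the tumors (-2.87 ± 0.22, adjusted p = 9.67e-05). Krt14, its partner, had 1095, 1872 and 777 in the glands and 258, 151 and 38.8 in the tumors (-3.16 ± 0.55, adjusted p = 0.0116), and tumor 1 again kept the most. The contractile genes followed: Myh11, smooth muscle myosin, had 489.7, 373 and 609 in the glands and 72.9, 22.8 and 33.6 in the tumors (-2.95 ± 0.35, adjusted p = 0.00179). Acta2, smooth muscle actin, fell from 6746, 4927 and 7646 to 3171, 1900.0 and 1078. Tpm2, a muscle tropomyosin, fell by 4.67-fold. The other members that fell, named after their values were seen, were Cnn1, Mylk and Trp63, which encode calponin, the myosin light chain kinase and the basal cell factor p63. The mean log2 signal of the 26 measured markers was 8.94 to 9.09 in the glands and 7.59 to 8.26 in the tumors. The count was 2 without tumor 2, 3 without gland 3, 4 without gland 1, 5 without both tumor 1 and gland 3, 4 with the Gapdh covariate and 2 with no filter on dim genes. Acta2 and Myh11 also mark vessel walls, and the share of each source was not tested.

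Few luminal markers were called. Of 22 tested luminal genes Elf5 fell and 0 rose (median 0.02, a sign that turned under some alternatives). Krt18, a luminal keratin, had 4544, 6987 and 4259 in the glands and 3783, 6691 and 5072 in the tumors, and Cdh1, or E-cadherin, had 1678, 2065 and 2802 in the glands and 2021, 1892 and 2121 in the tumors. Both overlapped and neither passed (adjusted p = 0.985 and 0.923). Vim, the mesenchymal filament gene, overlapped as well (2212, 3144 and 3095 against 3269, 2564 and 2454). Of 13 tested genes of epithelial-mesenchymal regulation, 0 passed in limma. Over all genes 1295 had an unadjusted p under 0.05.

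Vessel and stroma genes showed a mixed picture. Of 21 tested endothelial genes 2 fell and 0 rose (median -0.59), and 10 had every tumor below every gland, against 10.9% of all genes. The 2 were Tek and Fabp4, the fatty acid carrier that also stands in the adipocyte list. Fabp4 had 7779, 11347 and 13799.8 in the glands and 4763, 386 and 802 in the tumors, with tumor 1 highest among the tumors. Tek, the angiopoietin receptor Tie2, had 242, 221 and 377 in the glands and 145, 87.6 and 84.8 in the tumors (-1.41 ± 0.29, adjusted p = 0.029), while Pecam1 overlapped (221, 269.9 and 101 against 189.5, 86.7 and 108). Of 23 tested fibroblast genes 2 fell and 1 rose (median -0.45). Lum, the collagen-binding proteoglycan lumican, fell from 1996, 1745 and 2870.3 to 1223, 381 and 409 (-1.91 ± 0.42), and Mgp, matrix Gla protein, an inhibitor of calcification, rose from 552, 683 and 1136 to 3933, 2599.9 and 2276 (1.92 ± 0.36, adjusted p = 0.0179). The fibroblast count was 7 lower without tumor 1 and 0 without tumor 2, gland 1, gland 2 or gland 3. The endothelial count was 4 without tumor 1, 0 without tumor 2, tumor 3, gland 1 or gland 3, and 1 without gland 2. With the Gapdh covariate both lists had 0 lower.

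Few immune genes were called. Of 28 tested macrophage and myeloid genes 0 passed (median 0.27), and 0 passed among 7 T and NK cell genes (median -0.74) or 26 interferon response genes (median 0.08, a sign that turned under some alternatives). T and NK markers averaged 7.51 in gland 2, 6.36 and 6.53 in the other glands and 6.21 to 6.27 in the tumors, where 10 of 20 were at the floor on all 3 arrays. Ptprc, the pan-leukocyte marker CD45, had 294, 1649.6 and 834 in the glands and 862, 487 and 483 in the tumors, which overlap. Of 8 tested B and plasma cell genes, Blnk alone fell, from 293, 560.3 and 621 to 137, 144 and 141 (-1.73 ± 0.34). The call was lost without tumor 2, tumor 3, gland 2 or gland 3 and with the Gapdh covariate. Of 27 chemokine and receptor genes 1 rose and 1 fell. Cxcr4, the receptor of the chemokine CXCL12, rose from 99.0, 99.2 and 77.4 to 293, 489.6 and 832 (2.43 ± 0.36, adjusted p = 0.00531), and Il6st, the shared receptor subunit gp130, fell from 785, 1312 and 1115 to 541, 300.0 and 313 (-1.50 ± 0.31). Cxcr4 passed the brightness filter only with the tumor arrays.

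Of 44 tested detoxification genes 5 were lower and 2 higher (median -0.37), against 1.71% lower and 1.24% higher over all tested genes. Ephx2, the soluble epoxide hydrolase, had 964, 942 and 1354 in the glands and 271, 100.3 and 72.1 in the tumors (-3.10 ± 0.45, adjusted p = 0.00475), and Cyp4b1, a cytochrome P450, had 563, 548 and 738 in the glands and 156, 95.0 and 73.7 in the tumors (-2.57 ± 0.29, adjusted p = 0.00146). Cat, or catalase, fell from 2821, 1862 and 4608 to 1129, 855 and 1077. Gpx2, a glutathione peroxidase of epithelia, rose instead, to 163, 1236 and 333 in tumors 1 to 3 from at most 75.4 in the glands (2.69 ± 0.57, adjusted p = 0.0322), with tumor 2 far above the others. Gpx2 met the brightness filter only with the tumor arrays. The higher count was 0 when any 1 tumor or transgenic gland was left out, and the lower count was 3 without tumor 2, gland 1 or gland 3. With the Gapdh covariate the counts were 0 and 2.

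Outside the gene lists 80 genes fell. The largest of these falls were Ces1d, a carboxylesterase, with 1302, 1075 and 2099 in the glands and 309, 36.9 and 9.84 in the tumors (-3.83 ± 0.66, adjusted p = 0.0112), and Retnla, a resistin-like secreted protein gene, with 1467, 2208 and 6361 in the glands and 419.9, 235 and 166 in the tumors (-3.43 ± 0.58, adjusted p = 0.0104). Both were highest in gland 3 and lowest in tumor 3. Single genes fell in several other lists. Wnt5b, a non-canonical Wnt ligand, fell from 403, 284 and 304 to 118, 128 and 152 (-1.31 ± 0.28). Htra1, a secreted protease, fell from 527, 698 and 902 to 371, 132 and 84.3 (-2.11 ± 0.46). Hoxc8 fell to the level of the floor (171, 214 and 434 to 59.8, 42.6 and 48.2), and Nnat, an imprinted gene, fell from 347, 543 and 248 to 95.3, 104 and 36.6. None of these 4 kept its call without tumor 2.

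Among the largest gains, Tesc and Hey1 were near or below the floor in the glands, while Col11a1, Aqp5 and Prom1 were above it. Tesc, the gene of the calcium sensor tescalcin, had 5.61, 20.2 and 7.72 in the glands and 739, 1184 and 2091 in tumors 1 to 3. All glands were at the floor, so Tesc was at least 21.3-fold higher (4.41 ± 0.34, adjusted p = 9.67e-05). Hey1, a transcriptional repressor induced by Notch, had 41.7, 27.9 and 73.9 in the glands and 721, 744 and 660.2 in the tumors (3.50 ± 0.24, adjusted p = 5.42e-05) and had similar values in the 3 tumors. Aqp5, a water channel of secretory epithelia, was already measurable in the glands at 384, 501 and 216 and stood at 3159, 4326 and 3642 in the tumors (3.41 ± 0.32, adjusted p = 0.000406). Prom1, the membrane protein CD133 found on some progenitor cells, went from 80.5, 107 and 224 to 1149, 899 and 1503 (3.22 ± 0.41, adjusted p = 0.00254). Aqp5 is also expressed in salivary gland, and tumor 2, which carried salivary transcripts, had its highest value. Its log2 difference was between 2.97 and 3.68 under all 24 alternatives, and the part of salivary RNA in it was not tested beyond leaving out tumor 2. In ME-A, its revertant and the retransformed culture, in that order, Tesc had 1642, 5.84 and 4.83, Hey1 216, 30.1 and 183, Prom1 422, 30.7 and 26.7 and Aqp5 748, 2183 and 314. ME-A had the highest value of the 3 cultures for Tesc, Hey1 and Prom1, and the revertant had it for Aqp5.

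**Figure D3:**
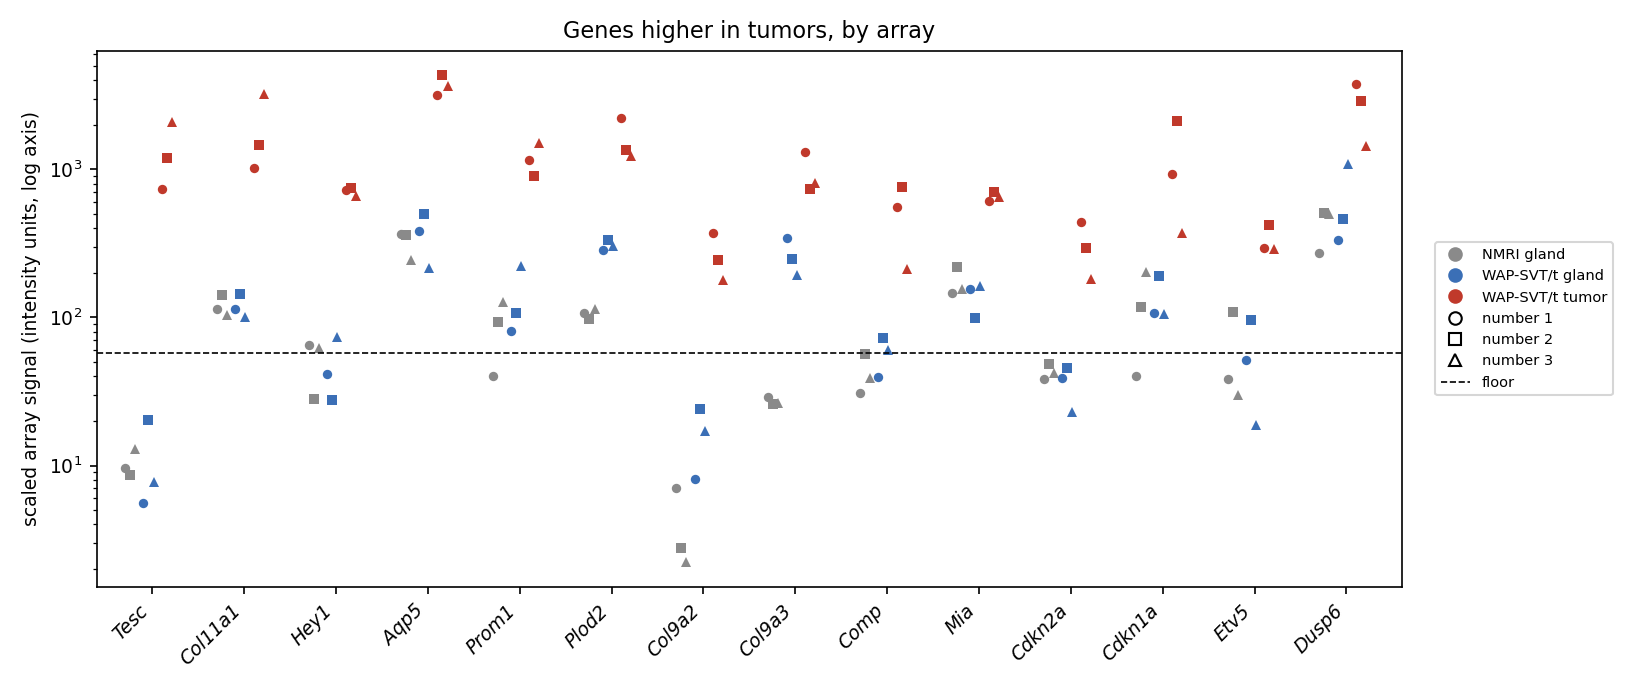
Scaled array signals (intensity units, log axis) of 14 genes that were higher in the tumors, in the 3 NMRI glands, 3 WAP-SVT/t glands and 3 WAP-SVT/t tumors, with the floor of 57.4 dashed. Each tumor lies above each WAP-SVT/t gland for all 14 genes, and the glands of Tesc, Col9a2 and Cdkn2a lie below the floor.

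The rise of Hey1 had no counterpart among the called Notch genes. Of 26 tested Notch pathway genes 1 rose and 0 fell (median 0.03, a sign that turned under some alternatives). Notch1, a receptor, had 1398, 1034 and 488 in the glands and 639, 1059 and 809 in the tumors, and Hes1, another target gene, had 500.1, 221 and 278 in the glands and 560.3, 556 and 238 in the tumors. Both overlapped and did not pass (adjusted p = 0.923 and 0.653). The ligand gene Dll1, chosen after its values were seen, had 1035, 1128 and 96.0 in tumors 1 to 3 and was low in the third. Hey1 was not bright enough to be tested when any 1 tumor was left out.

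Among collagens and the enzymes that modify them, 8 of 36 tested members rose and 0 fell (median 0.39), the most rises of any list. Of the 8, Col11a1, Col9a2, Col8a1 and Col12a1 met the brightness filter only with the tumor arrays. Col11a1, a chain of the minor fibrillar collagen of cartilage, had 114, 143 and 100.3 in the glands and 1026, 1467 and 3230.4 in the tumors (3.84 ± 0.37, adjusted p = 0.000487), a 14.4-fold rise. Col9a2 and Col9a3, chains of the type IX collagen that coats those fibrils, went from 8.16, 24.2 and 17.2 to 374, 243 and 179.7 and from 343, 248 and 195 to 1314, 739 and 807. Col9a2 was at least 4.42-fold higher, since all glands were at the floor, and Col9a3 rose by 3.62-fold (adjusted p = 0.00478 and 0.00704). Col1a1, the main fibrillar collagen of ordinary stroma, chosen after its values were seen, had 1053, 1385 and 1022 in the glands and 4332, 1337 and 1039 in the tumors, with tumor 1 alone high. Plod2, a lysyl hydroxylase that prepares collagen for cross-linking, rose from 287, 332 and 305 to 2230.0, 1361 and 1232 (2.33 ± 0.26, adjusted p = 0.00117). Of further members, named after their values were seen, Plod1, a relative of Plod2, rose by 5.07-fold, and Col8a1 and Col12a1, collagens of basement membranes and of fibril surfaces, rose by 4.58-fold and 3.32-fold. The count was 4 without tumor 1, 3 without tumor 2, and 4 with the Gapdh covariate or with no filter on dim genes.

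Several of these collagens are known from cartilage, and a list of cartilage genes was therefore drawn up after the values were seen and is given with no test. Of its 26 measured genes 15 were bright enough to test, 7 rose and 0 fell. The count was 4 without tumor 1, 3 without tumor 2 or tumor 3, 4 with no filter on dim genes and 6 with the Gapdh covariate, and the median of the tested members went from 1.69 to 0.18 without tumor 1 and to 0.04 without tumor 1 and gland 3. Besides Col11a1, Col9a2 and Col9a3 these were Comp, a cartilage matrix protein (39.9, 73.1 and 59.9 in the glands and 555, 764 and 212 in the tumors), Mia (155, 98.5 and 164 in the glands and 613, 699.9 and 646 in the tumors), Scrg1 (64.8, 79.9 and 59.6 in the glands and 218, 364 and 508 in the tumors) and Snorc (80.7, 121 and 65.0 in the glands and 167, 593 and 620.3 in the tumors). For each of the 4 the tumors lay above the glands, and Mia had similar values in the 3 tumors. Of the 7, all but Col9a3 and Mia met the brightness filter only with the tumor arrays. Other defining genes of cartilage were dim or were not called. Of the 15 tested members, 11 had a log2 difference above 0 and 4 below. Prelp and Ogn went down and did not pass (-2.01 and -2.10, adjusted p = 0.0618 and 0.14). Col9a1, another type IX chain, overlapped and did not pass (1345, 191 and 339 in the glands, 3239, 623 and 1461 in the tumors). Its NMRI gland signals were higher, at 6766, 5153 and 7126. Sox9, the factor that switches on cartilage genes, had 485, 449 and 301 in the glands and 234, 321 and 292 in the tumors and did not pass (-0.53 ± 0.26, adjusted p = 0.355). Acan, the proteoglycan aggrecan, had 47.2, 58.8 and 51.8 in the glands and 59.3, 265 and 172 in the tumors (adjusted p = 0.205). Col2a1, the main cartilage collagen, was too dim for the test, with 22.9, 16.8 and 74.8 in the glands and 301, 270.1 and 77.5 in the tumors, and Col10a1 was at the floor in all glands and tumors. The mean log2 signal of the 26 genes was 6.77 to 6.86 in the glands and 7.34 to 7.62 in the tumors. Of the 7 genes, Col11a1 had a signal of 1542, Col9a3 990, Mia 607 and Scrg1 233 in the cultured line ME-A, while Col9a2 had 55.6, Comp 61.0 and Snorc 106. Col11a1 was also high in the retransformed culture, at 1506.

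Among 35 tested proteoglycans and matrix glycoproteins 3 rose and 1, Lum, fell (median 0.21, a sign that turned under some alternatives). Vcan, or versican, a large proteoglycan of loose matrix, rose from 114, 142 and 163 to 839, 408 and 533 (2.04 ± 0.34, adjusted p = 0.0104), and Thbs1, or thrombospondin, a matrix glycoprotein that curbs vessel growth, rose from 145, 187 and 155 to 1027, 606 and 672 (2.21 ± 0.48). Comp was the third and met the brightness filter only with the tumor arrays. Without tumor 2, 1 of them passed, and 5 genes of the list fell without tumor 1. Of 23 tested metalloproteinases and inhibitors, Mmp13, a collagenase, rose from 32.9, 85.7 and 98.7 to 769.9, 1195 and 159.9 (2.75 ± 0.59, adjusted p = 0.0335). Mmp13 was dimmer in tumor 3 than in the others, lost its call without any 1 gland and could not be tested without any 1 tumor.

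Glycolysis and hypoxia response genes rose in 5 of 33 tested members, with 0 lower (median 0.44). Every tumor was above every gland in 17 of them, against 8.75% of all genes, and below in 2. Slc2a1, the glucose carrier, had 463, 289 and 423 in the glands and 1064, 1818 and 1101 in the tumors (1.74 ± 0.37, adjusted p = 0.0322). Tpi1, a glycolytic enzyme, had 2593, 1749 and 1619 in the glands and 5040.1, 4875 and 4299 in the tumors (1.28 ± 0.23, adjusted p = 0.014). Car12, a carbonic anhydrase of the cell surface that handles acid, had 205, 116 and 207 in the glands and 573, 717 and 933 in the tumors (2.09 ± 0.30, adjusted p = 0.00475). The 3 genes had no overlap between groups, and the steps of Slc2a1 and Tpi1 were moderate, 3.35-fold and 2.43-fold. Ddit4, an inhibitor of mTOR induced by stress, rose from 178, 568 and 179.9 to 1216, 1844 and 978, and P4ha1, a prolyl hydroxylase of collagen, rose from 189, 163 and 114 to 428, 310.0 and 384. Car12 and P4ha1 met the brightness filter only with the tumor arrays. Vegfa, the vessel growth factor, had 488, 261 and 386 in the glands and 511, 548 and 439 in the tumors and did not pass (adjusted p = 0.476). The count was 1 without tumor 2 or without gland 3, 3 without gland 1, 2 with the Gapdh covariate, 1 without tumor 1 and gland 3 together and 1 with no filter on dim genes, and 9 with the replicate number as a block. None of 60 oxidative phosphorylation genes passed, with a median of -0.38, and 15 of them had every tumor below every gland, against 10.9% of all genes.

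The promoters of 3 of these genes are shown because they rose together and hold the core letters of the hypoxia response element, ACGTG, which the factor HIF is known to bind. The windows are chr4:119108495-119108744, plus strand, for Slc2a1, chr10:59951771-59952020, minus strand, for Ddit4, and chr10:59323046-59323295, plus strand, for P4ha1 (GRCm38.p6, RefSeq, 250 bases before the start site, 5′ to 3′ on the gene's strand). Capitals mark ACGTG, or its reverse complement CACGT, searched on both strands.
Slc2a1: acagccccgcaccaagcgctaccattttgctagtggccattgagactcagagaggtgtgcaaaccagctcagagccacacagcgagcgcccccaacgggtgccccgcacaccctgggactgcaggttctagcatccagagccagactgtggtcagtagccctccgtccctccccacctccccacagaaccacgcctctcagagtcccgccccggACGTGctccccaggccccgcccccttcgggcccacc
Ddit4: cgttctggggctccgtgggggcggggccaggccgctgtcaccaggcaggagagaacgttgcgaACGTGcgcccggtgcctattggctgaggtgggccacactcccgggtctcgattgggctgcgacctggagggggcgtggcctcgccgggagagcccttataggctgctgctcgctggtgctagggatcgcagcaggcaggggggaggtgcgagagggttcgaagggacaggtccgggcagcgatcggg
P4ha1: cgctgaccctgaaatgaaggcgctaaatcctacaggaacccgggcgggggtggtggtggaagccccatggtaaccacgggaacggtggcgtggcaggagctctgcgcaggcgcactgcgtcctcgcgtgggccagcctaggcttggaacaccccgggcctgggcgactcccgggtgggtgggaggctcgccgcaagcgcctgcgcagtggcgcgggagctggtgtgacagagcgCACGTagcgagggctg
The match began 36 bases before the start site in Slc2a1, 187 in Ddit4 and 16 in P4ha1, and the letters were not in the windows of Car12 and Tpi1. They stood in 21.43% of the 112 promoters of genes that rose, 21.78% of the 8284 promoters of tested genes and 16.57% of all promoters. The share among genes that rose was thus close to that among all tested genes.

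Inhibitors of the cell cycle were among the rises. Of 24 tested genes of the CDK inhibitor and RB list 2 rose and 0 fell (median 0.22). Cdkn2a, the locus of the p16INK4a and p19ARF proteins, had 38.8, 45.4 and 23.0 in the glands, all at the floor, and 439.7, 294 and 181 in the tumors, and was at least 4.98-fold higher (2.32 ± 0.33, adjusted p = 0.00475). Cdkn1a, or p21, had 107, 190.4 and 105 in the glands and 934, 2126 and 373 in the tumors (2.81 ± 0.60, adjusted p = 0.0324). The groups were apart for both, with tumor 3 the lowest of the tumors. Both genes met the brightness filter only with the tumor arrays. Cdkn1a lost its call without gland 1, gland 3, tumor 1 or tumor 2, and Cdkn2a was too dim to test when a tumor was left out. Rb1, which encodes the RB protein, had 1166, 1171 and 1572 in the glands and 780.3, 771 and 953 in the tumors and did not pass, though the groups did not overlap (-0.63 ± 0.29, adjusted p = 0.299). The p53 gene itself was not analysed here.

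Of 27 tested p53 list genes 4 rose and 0 fell (median 0.35): Cdkn1a, Epha2, Psrc1 and Ddit4. Of these, all but Ddit4 met the brightness filter only with the tumor arrays. Psrc1, a spindle-associated protein gene, rose from 135, 241 and 95.5 to 651, 1348 and 473 (2.35 ± 0.41, adjusted p = 0.0122). All 4 respond to other signals as well as to p53, and the count was 0 without tumor 2, 1 without gland 1, 2 without gland 3, 1 with the Gapdh covariate and 0 without tumor 1 and gland 3 together. None of 32 tested apoptosis genes passed (median 0.04, a sign that turned under some alternatives).

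Genes of cell division were high on all 6 arrays and none was called. Of 48 G1/S and DNA replication genes and 52 mitosis genes 0 passed in limma, with medians of 0.18 and 0.19. Mki67, a marker of cycling cells, had 4050.3, 3161 and 3255 in the glands and 2664, 2299.7 and 2715 in the tumors (log2 difference -0.44 ± 0.52, adjusted p = 0.724). The NMRI glands, whose spread enters this standard error and p, had 382, 121 and 53.8 for Mki67. Top2a, which untangles chromosomes, had 2651, 2024 and 1700.3 in the glands and 2674, 1937 and 2542 in the tumors (0.18 ± 0.25, adjusted p = 0.77). The mean log2 signal of the mitosis list lay between 9.14 and 9.65 in the glands and between 9.42 and 9.66 in the tumors, against 6.55 to 6.69 in the NMRI glands. Mki67 was lower in every tumor than in every transgenic gland, and a p that misses the threshold does not show equal levels. Rad51c, a recombination repair gene, rose from 46.1, 59.4 and 41.4 to 180.2, 169 and 243 (1.74 ± 0.28, adjusted p = 0.00851) and was the 1 of 27 tested repair genes that passed. Hells, a helicase of DNA methylation, rose by 1.8-fold and Phc2, a Polycomb subunit, by 2.27-fold, and neither kept its call when any 1 tumor was left out.

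Growth factor signalling changed at a few points. Of 28 tested FGF and RAS-MAPK feedback genes 3 rose and 0 fell (median 0.28), and 10 had every tumor above every gland, against 8.75% of all genes. Etv5, a transcription factor induced by FGF, had 51.9, 95.6 and 18.6 in the glands and 293, 419.5 and 291 in the tumors (2.28 ± 0.35, adjusted p = 0.00628). Dusp6, the phosphatase that switches off ERK, rose from 334, 463 and 1092 to 3772, 2883 and 1440.0 (2.18 ± 0.48, adjusted p = 0.0348), and Spry1, a feedback inhibitor, rose by 2.36-fold. The count was 0 without tumor 2, 1 without tumor 1, gland 1 or gland 2, 2 without tumor 3 and 1 with the Gapdh covariate. Of 9 tested EGF receptor family genes Hbegf, a ligand, rose from 54.8, 123 and 87.9 to 339, 1361 and 496 (2.84 ± 0.49, adjusted p = 0.0111), while Erbb2, the HER2 receptor, had 249, 295 and 197 in the glands and 371, 408 and 279 in the tumors and overlapped. Igfbp3, which binds insulin-like growth factors, rose from 78.3, 42.7 and 59.7 to 563, 258 and 667 (2.83 ± 0.35, adjusted p = 0.00232). Etv5, Hbegf and Igfbp3 met the brightness filter only with the tumor arrays. Hbegf lost its call without gland 1 and with the Gapdh covariate. Myc had every tumor above every gland (859, 561 and 534 against 412, 348 and 461) but did not pass (adjusted p = 0.313). The steroid receptor genes Esr1 and Pgr were under the floor on all 6 arrays.

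Guidance receptors rose in 3 of 22 tested genes of the semaphorin and ephrin list, with 0 lower (median 0.36). Epha2, an ephrin receptor of epithelia, had 45.5, 64.0 and 146 in the glands and 561, 719 and 279 in the tumors (2.57 ± 0.43, adjusted p = 0.0104). Ephb3, a related receptor, rose from 133, 173 and 140.4 to 361, 584 and 285, and Unc5b, a netrin receptor, rose from 107, 79.5 and 36.5 to 305, 192 and 201. Each of the 3 had its tumors above its glands, and all 3 met the brightness filter only with the tumor arrays. The count was 0 without tumor 2, 1 without gland 1 or gland 3, 2 without tumor 1 or gland 2, 5 without tumor 3 and 1 with the Gapdh covariate.

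Other large rises fell in lists of their own or in none. Pla2g7, which breaks down platelet-activating factor, had 83.3, 151 and 152 in the glands and 2113, 1590.3 and 311 in the tumors (3.03 ± 0.59, adjusted p = 0.0205), with tumor 3 well below the others. Rap1gap, which switches off the GTPase Rap1, rose from 188, 142 and 61.5 to 472, 786 and 890.1 (2.55 ± 0.40), and Rtn1, a reticulon of the endoplasmic reticulum, rose from 47.5, 75.8 and 125 to 533, 687 and 297 (2.55 ± 0.36). Anxa3, an annexin, rose from 397, 1041 and 899 to 2502, 2905 and 2598 (1.89 ± 0.37). In all, 59 of the 98 higher genes stood in no list.

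**Figure D4:**
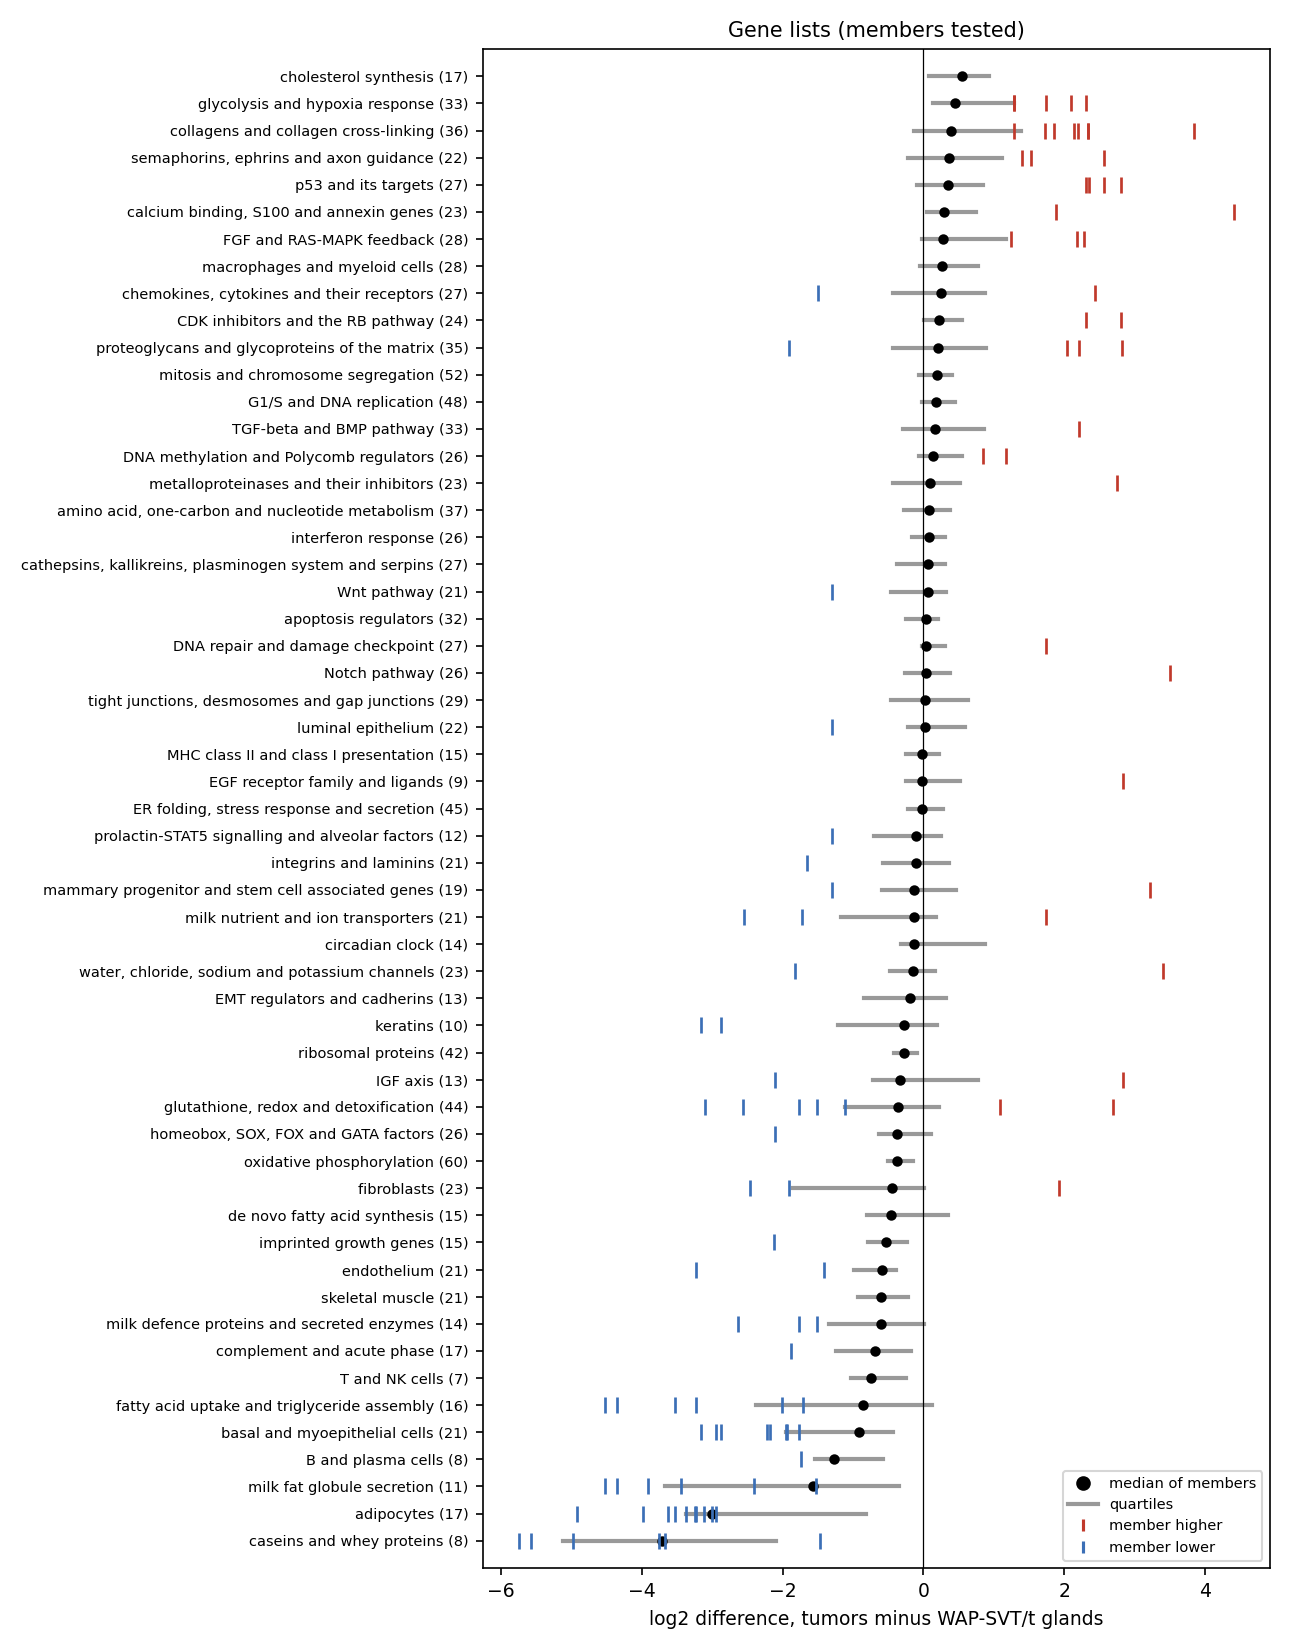
Log2 differences (tumors minus WAP-SVT/t glands) of 55 gene lists, ordered by the median of their tested members (black point) with the quartiles (gray bar), the number of members tested in parentheses, and members called higher (red) or lower (blue) as ticks. Caseins and whey proteins (-3.71) come lowest, followed by adipocytes, and cholesterol synthesis (0.55) comes highest with 0 members called.

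The 3 tumors differed among themselves as well. Over all 12393 genes, 17 were at least 8-fold higher in tumor 1 than in both other tumors (0.137%), 13 in tumor 2 (0.105%) and 4 in tumor 3 (0.0323%), while 2 (0.0161%), 1 (0.00807%) and 9 (0.0726%) were at least 8-fold lower. With 1 sample per tumor these differences have no replicate check. Tumor 1 was marked by skeletal muscle genes. Acta1, skeletal actin, had 3008, 69.5 and 65.6 in tumors 1 to 3 and 1200.4 in gland 3, and Tnnc2, fast troponin C, had 1979, 7.35 and 3.31 in the tumors and 158, 182 and 4144 in the glands. Ckm, muscle creatine kinase, had 1423, 71.7 and 51.4 in the tumors. For all 3 genes tumor 1 and gland 3 were high together, and 0 of 21 tested muscle genes passed between tumors and glands. The counts without both arrays were 44 higher and 133 lower, and 35 and 84 of these were shared with the counts over all arrays. The 2 genes low in tumor 1 were Cxadr and H2-D1, a class I gene. H2-D1 had 160, 5157 and 6437 in tumors 1 to 3 and 221, 136 and 144 in the glands. The NMRI glands had 5947, 8609 and 7489. It did not pass (adjusted p = 0.132 in limma), and its log2 difference ranged from -1.67 to 5.14 over the alternatives.

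Tumor 2 was marked by secreted proteins of the salivary gland. Bpifa2, a salivary secretory protein, had 24.5, 7908 and 37.8 in tumors 1 to 3, Chia1, an acidic chitinase, had 11.9, 7277 and 11.6, and Smr3a, a submaxillary gland protein gene, had 3.34, 5706 and 19.4. The glands stayed at or below 58.6 for all of them. Dnase1 (6.58, 5559 and 19.9) followed the same pattern. Amy1, or salivary amylase, chosen after its values were seen, had 88.5, 6023 and 23.0 in the tumors and 257, 224 and 1309.6 in the glands. Of 18 measured salivary genes 8 were bright enough to test. Of these Aqp5 was the one that rose and Pigr the one that fell. The part of these transcripts in the results was not tested beyond the values without tumor 2.

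Tumor 3 was marked by a different set. Sox2, a stem cell transcription factor, had 0.84, 2.19 and 1093 in tumors 1 to 3 and 13.2, 7.49 and 14.6 in the glands. Bex1 had 69.0, 18.4 and 1349 in the tumors, and Cldn10, a tight junction claudin, had 150.4, 194 and 2701. Tumor 3 alone was high for Sox2 and Cldn10, while the glands had 465, 498 and 644 for Bex1, between tumor 3 and the others. It was low for Krt19, a luminal keratin (1487, 1619 and 105), for Pkp1, a desmosome protein gene (1943, 1542 and 107), and for Hmga2, a chromatin protein gene of embryonic tissue (717, 935 and 63.0). Beta-casein was also on this list of low genes. The glands had 2709.8, 1533 and 1291 for Krt19 and 88.5, 179 and 207 for Pkp1, so tumor 3 lay below the glands for the former, and tumors 1 and 2 lay above them for the latter.

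**Figure D5:**
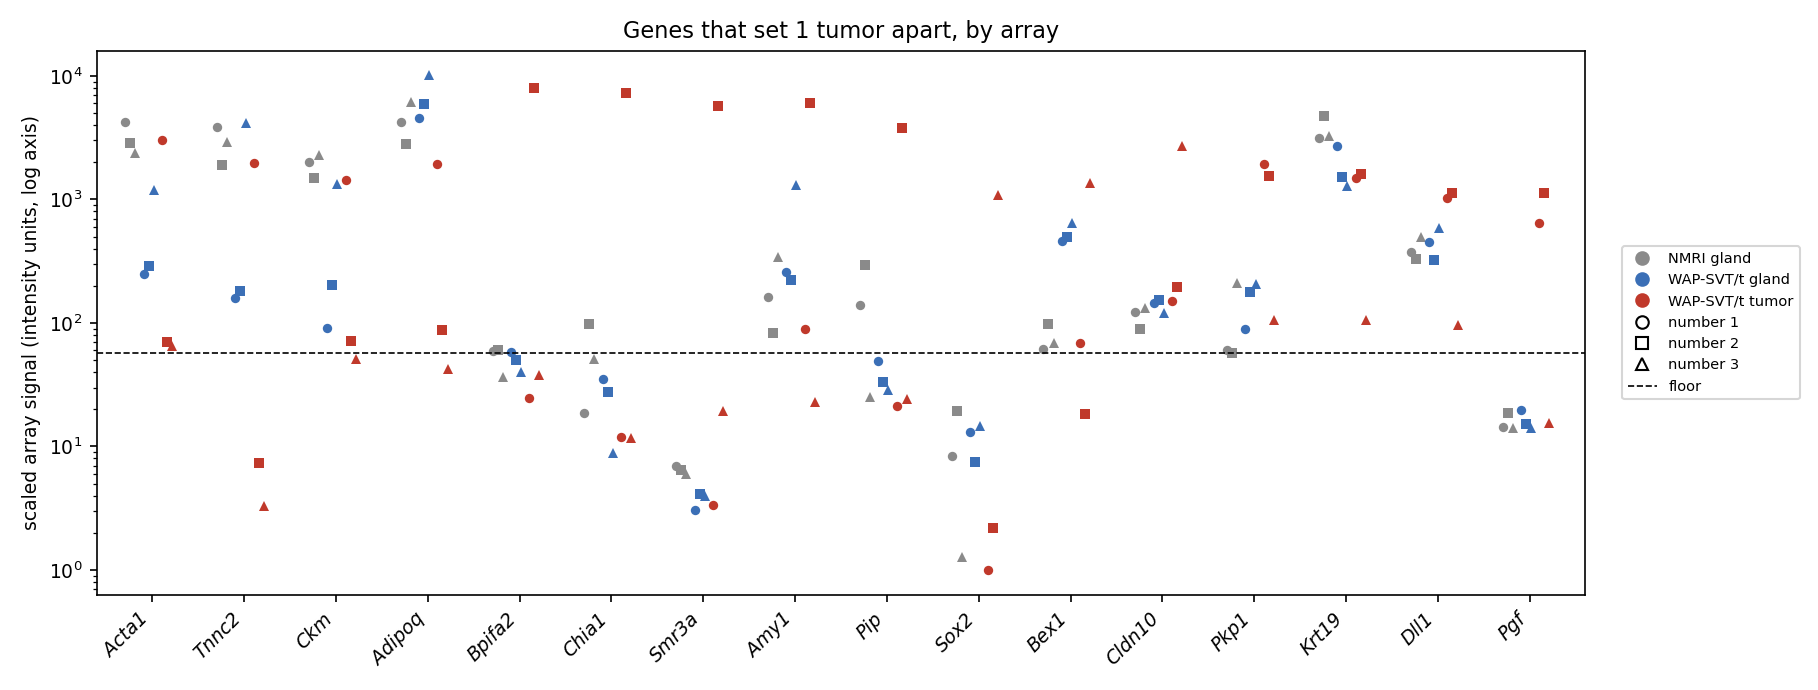
Scaled array signals (intensity units, log axis) of 16 genes that set 1 tumor apart, in the 3 NMRI glands, 3 WAP-SVT/t glands and 3 WAP-SVT/t tumors, with array numbers as symbols, the floor of 57.4 dashed and values under 1 drawn at 1. Acta1, Tnnc2, Ckm and Adipoq are high in tumor 1, Bpifa2 to Pip in tumor 2 and Sox2, Bex1 and Cldn10 in tumor 3, while Pkp1, Krt19, Dll1 and Pgf are low in tumor 3.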

How the data were processed

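RNA of 12 samples was hybridised to single-color arrays. The deposited values are intensities, 1 signal per probe set on a linear scale, which the authors computed with MAS5, per the submitters' processing notes. Its version, background step and scaling target are not stated there.

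Of 22690 probe sets, 64 were controls and left out, 20380 named 1 gene in the platform annotation, 691 named several and 1555 named none. Each array was scaled to a common mean after trimming 2% of probe sets at each end. Signals were floored at the pooled 30th percentile (57.4) and taken to log2. The brightest of a gene's probe sets stood for the gene, as 4956 of 12393 genes had several. A gene was tested where at least 3 of the 9 tissue arrays exceeded the pooled median of 139.9. R 4.3.3 with limma 3.58.1 (lmFit and eBayes with a mean trend) fitted NMRI glands, WAP-SVT/t glands and tumors as 3 groups, which left 6 residual degrees of freedom, and Benjamini-Hochberg adjusted p was called below 0.05. The code was tested on simulated data. The deposited signals give no read depth, and the number of arrays limits the precision.

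Genes were named from the largest 15 rises and falls, the members of each gene list with the smallest p among those called without overlap, a standing list of epithelial, milk, cell cycle and receptor genes, and the genes furthest apart between tumors. Other genes are said to be chosen after their values were seen. The comparison, the gene lists and these rules were chosen with earlier results of these data known. Alternatives changed the scaling, floor, filter, choice of probe set, variance model and arrays. The prolactin receptor and p53 genes, and transgene RNA, were not analysed here.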

Additional observations from a re-analysis of the deposited data

How the results depend on the processing

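The 98 higher and 135 lower genes became 65 and 59 when the NMRI glands were left out of the fit, 40 and 31 with no filter on dim genes (12393 genes tested), and 52 and 49 with the Gapdh ratio as a covariate. Without tumor 1 and gland 3 together, 44 were higher. With 1 tumor or transgenic gland left out the counts ranged from 28 (without tumor 2) to 114 (without gland 2) for higher and from 41 (without tumor 2) to 163 (without tumor 1) for lower genes. Leaving out 1 NMRI gland, an alternative chosen after seeing the data, gave 76 to 82 and 94 to 101. All other alternatives stayed within 1.5 times of both counts, and no called gene that could be tested changed direction under any. The causes were not tested, except that with any 1 tumor left out 77 of the 98 higher genes stayed bright enough to test.

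With the replicate number as a replicate block, 132 genes were higher and 151 lower, of which 88 and 120 were among those called without it. Deviations of same-numbered tumors and glands correlated at -0.17, 0.33 and -0.10 for numbers 1, 2 and 3. The Gapdh ratios in the same order were 12.9, 2.28 and 40.3 in the NMRI glands and 10.7, 2.49 and 22.5 in the transgenic glands. In the tumors they were 5.63, 0.982 and 0.969. Whether same-numbered samples share more than a number was not tested. Signals near the floor of 57.4 limit what can be seen of dim genes.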
